A study of Rattus norvegicus with 9 samples.

Results

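The plasminogen activation and matrix proteolysis genes Serpinb2, Plau, Plaur, Plat, Mmp3 and Prss22 were followed in rat adrenal zona glomerulosa cells. They are 6 of the 14217 genes named by a single symbol on the Affymetrix Rat Genome 230 2.0 array, and 8 of its 31042 probe sets that are not controls carry 1 of these symbols alone, 2 each for Plau and Plaur. Zona glomerulosa cells make aldosterone in the outermost zone of the adrenal cortex, and here they were freshly dispersed by enzymes and mechanical force. Each of 3 independent preparations was split into 3 tubes that were kept for 2 h at 37 °C in the same albumin-containing medium: a control tube under basal conditions, a tube with angiotensin II (Ang II, 100 nM) and a tube with raised potassium (16 mM). The sources used here do not give the strain, sex or age of the rats, nor the potassium concentration of the control medium. Each of the 9 tubes gave 1 array and 1 linear signal per probe set. The members were picked by symbol with results of all these comparisons known, so their values are a description, with no test.

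Plasmin is a serine protease that dissolves fibrin and degrades matrix proteins, and it is cut from plasminogen by urokinase (gene Plau) or by tissue plasminogen activator (Plat). The urokinase receptor (Plaur) holds urokinase on the cell surface, and plasminogen activator inhibitor 2 (Serpinb2) blocks the active site of urokinase and, more slowly, of tissue plasminogen activator. Prss22 encodes tryptase epsilon, a serine protease that can activate the urokinase precursor, and Mmp3 encodes stromelysin 1, a matrix metalloproteinase whose precursor plasmin can activate.

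Promoter windows were found for 4 of the 6 members in the RefSeq table of build GRCr8, each running from 250 bases before to 50 bases after the start site. They are shown because 3 of them hold the AP-1 motif TGANTCA, the site of Fos and Jun dimers, which was searched on both strands and reads the same on either. Capitals mark that motif, and each sequence runs 5′ to 3′ on the strand of its gene. The windows are chr13:24055771-24056070 on the plus strand for Serpinb2, chr1:89181113-89181412 on the plus strand for Plaur, chr8:12925031-12925330 on the plus strand for Mmp3 and chr15:3511938-3512237 on the minus strand for Plau.
Serpinb2: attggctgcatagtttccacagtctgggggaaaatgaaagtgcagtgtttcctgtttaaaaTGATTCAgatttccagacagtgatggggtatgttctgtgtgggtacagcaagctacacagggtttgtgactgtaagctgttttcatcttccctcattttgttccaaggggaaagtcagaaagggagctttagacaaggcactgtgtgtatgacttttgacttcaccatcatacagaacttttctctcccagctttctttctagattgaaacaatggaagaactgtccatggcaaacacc
Plaur: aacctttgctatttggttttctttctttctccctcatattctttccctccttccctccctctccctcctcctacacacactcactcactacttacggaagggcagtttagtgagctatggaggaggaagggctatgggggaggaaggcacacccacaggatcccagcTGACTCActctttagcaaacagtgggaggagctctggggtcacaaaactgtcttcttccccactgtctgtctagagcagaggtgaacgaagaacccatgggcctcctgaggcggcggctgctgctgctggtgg
Mmp3: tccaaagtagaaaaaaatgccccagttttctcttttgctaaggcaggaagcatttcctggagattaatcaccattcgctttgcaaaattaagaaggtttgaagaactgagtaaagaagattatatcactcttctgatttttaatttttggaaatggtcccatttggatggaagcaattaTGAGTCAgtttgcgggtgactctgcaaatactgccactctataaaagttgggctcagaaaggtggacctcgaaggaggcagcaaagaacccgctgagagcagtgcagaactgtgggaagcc
Plau: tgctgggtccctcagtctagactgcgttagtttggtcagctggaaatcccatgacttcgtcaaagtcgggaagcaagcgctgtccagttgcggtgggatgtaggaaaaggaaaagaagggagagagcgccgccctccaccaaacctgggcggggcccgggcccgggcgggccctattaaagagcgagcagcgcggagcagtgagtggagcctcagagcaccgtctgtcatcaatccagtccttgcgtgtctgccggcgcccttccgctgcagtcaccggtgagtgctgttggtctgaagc

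The AP-1 match began 189 bases before the start site in Serpinb2, 83 bases before it in Plaur and 71 bases before it in Mmp3. The same motif was found in 7.33% of all 33469 promoter windows of this length. The window of Plau held no AP-1 match. It held the core of the cyclic AMP response element, TGACG, on the other strand (193 bases before the start, in 21.2% of all windows), and the NF-kB motif GGGANTTCC, also on the other strand (209 bases before the start, in 1.64%). Mmp3 had a TATA box, TATAAA, 32 bases before its start (in 14.2% of all windows). No match to TGACGTCA, the full cyclic AMP response element (1.83%), to AAAGGTCA, the NBRE motif of Nr4a receptors (1.43%), or to the Ets core CCGGAA (15%) lay in the 4 windows on either strand, which says only that these letters are not there. The core TGACG is contained in TGACGTCA, and no printed match overlapped another. The window of Serpinb2 lies inside the annotated span of the gene, so other annotated transcripts of Serpinb2 start elsewhere. A match of letters is not evidence that a factor binds.

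**Figure D1:**
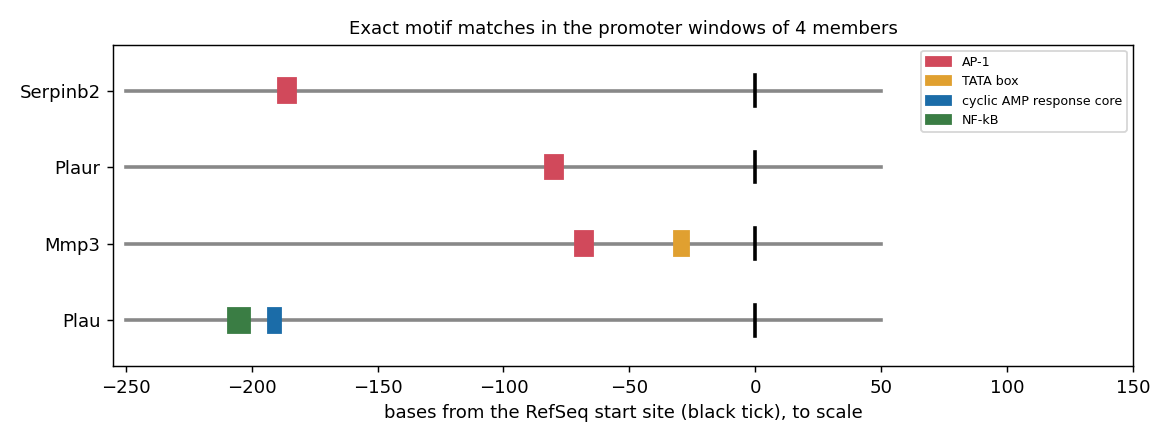
Exact motif matches in the 300-base promoter windows of Serpinb2, Plaur, Mmp3 and Plau, drawn to scale with the horizontal axis in bases from the RefSeq start site (black tick). AP-1 matches (red) lie in the windows of Serpinb2, Plaur and Mmp3, and the window of Plau holds the matches to the cyclic AMP response core and NF-kB.

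Differences between groups are given as differences of log2(signal + 16) within a preparation, with the standard error (SE) of a model of all 9 arrays. This scale understates changes of dim probe sets, and folds are 2 to the power of that difference. Probe sets whose mean log2(signal + 16) lay above 6.61, the 40th percentile, were tested (18625 of 31042), and 7 of the 8 member probe sets were among them. Adjusted p-values of genes that are not members come from limma with Benjamini-Hochberg adjustment over those 18625. Both comparisons with control use the same 3 control arrays.

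The inhibitor gene Serpinb2 (probe set 1368487_at) gave signals of 146, 198 and 147 in the control tubes of preparations 1, 2 and 3. With Ang II the signals were 1170.1, 1037 and 1256, and with potassium 60.9, 123 and 96.1. Every Ang II tube lay above every control tube, every potassium tube lay below every control tube, and no groups overlapped. The log2 difference between Ang II and control was 2.71 ± 0.19 (SE, 3 preparations), or 6.55-fold, with paired values of 2.87, 2.30 and 2.97. Between potassium and control it was -0.75 ± 0.19, with paired values of -1.08, -0.63 and -0.54, which is 1.68-fold lower. Between Ang II and potassium the log2 difference was 3.46 ± 0.19, the largest among the members.

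**Figure D2:**
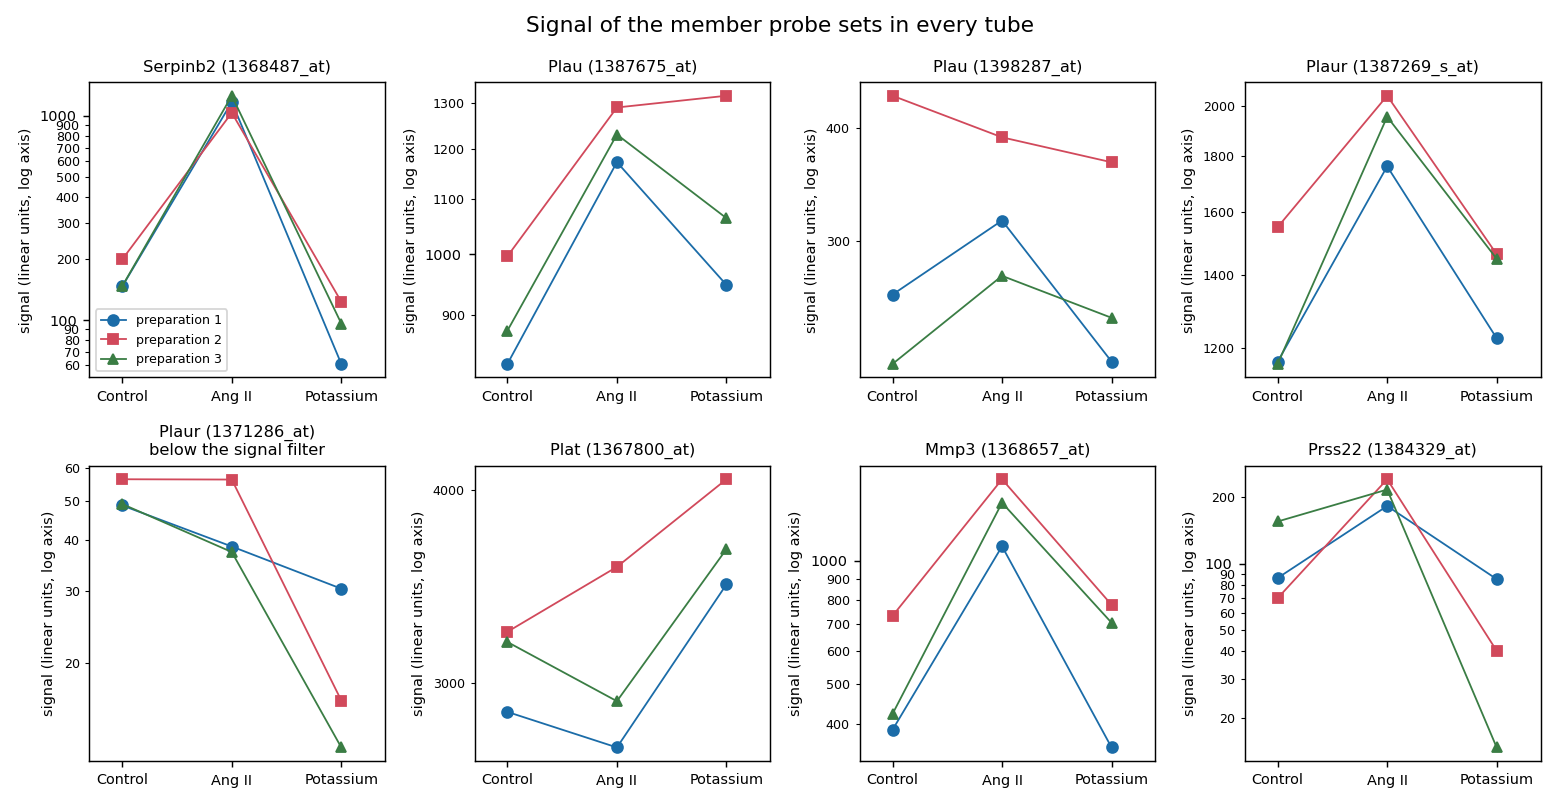
Signal (linear units, on a log axis) of the 8 member probe sets in the control, Ang II and potassium tubes, with 1 line and marker per preparation. The signals of Serpinb2, Mmp3, Plaur at 1387269_s_at and Prss22 peak with Ang II in all 3 preparations, those of Plat are highest with potassium, and the axes differ between panels.

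Of the activators, urokinase was represented by 2 probe sets of Plau. The brighter, 1387675_at, read 827, 996 and 876 in control, 1173, 1289 and 1230.1 with Ang II, and 948, 1315.5 and 1064 with potassium. All Ang II tubes exceeded all control tubes, while the potassium tubes overlapped both other groups. Its log2 difference was 0.45 ± 0.09 (1.36-fold) for Ang II against control, 0.29 ± 0.09 (1.22-fold) for potassium against control and 0.16 ± 0.09 for Ang II against potassium. The paired values for potassium against control were 0.19, 0.40 and 0.28, so the potassium tube was higher in every preparation. The dimmer probe set, 1398287_at, did not show this pattern. It read 262, 434 and 219.7 in control, 316, 391 and 275 with Ang II and 221, 367 and 247 with potassium, all 3 groups overlapped, and its log2 differences from control were 0.14 ± 0.16 for Ang II and -0.10 ± 0.16 for potassium. The mean of both probe sets gave 0.29 for Ang II and 0.093 for potassium.

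Plat, the gene of tissue plasminogen activator, was the member that was highest with potassium. Its signals (1367800_at) were 2873, 3239 and 3189.7 in control, 2725, 3568 and 2919.8 with Ang II, and 3476, 4067 and 3664 with potassium. The potassium tubes all lay above the control tubes, and the Ang II tubes overlapped both. The log2 difference was 0.27 ± 0.07 (1.20-fold) for potassium against control, with paired values of 0.27, 0.33 and 0.20, and -0.02 ± 0.07 for Ang II against control. Within each preparation the Ang II tube was below the potassium tube, by a mean log2 difference of -0.29 ± 0.07.

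The receptor gene Plaur had a bright probe set, 1387269_s_at, with signals of 1166, 1549.6 and 1161 in control, 1762, 2045 and 1957 with Ang II and 1225, 1463 and 1449 with potassium. Ang II tubes lay above all other tubes, and control and potassium tubes overlapped. The log2 difference of Ang II was 0.58 ± 0.09 from control (1.49-fold) and 0.48 ± 0.09 from potassium (1.39-fold), and the 3 paired values of the latter ran from 0.43 to 0.52. Potassium against control gave 0.10 ± 0.09, with paired values of both signs. The other probe set of Plaur, 1371286_at, was below the signal limit for testing. It read 48.7, 56.4 and 49.1 in control, 38.6, 56.4 and 37.4 with Ang II, and 30.4, 16.1 and 12.4 with potassium, so that it was lower with potassium in all 3 preparations (-0.95 on the log2 scale) and not higher with Ang II.

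After Serpinb2, Mmp3 (1368657_at) had the largest log2 difference between Ang II and control among the members. Signals were 386, 733 and 422 in control, 1084, 1580.5 and 1385 with Ang II, and 349.8, 780.1 and 705 with potassium. All Ang II tubes exceeded all tubes of the other groups, and control and potassium tubes overlapped. The log2 difference was 1.41 ± 0.15 (2.65-fold) for Ang II against control and 1.18 ± 0.15 (2.27-fold) for Ang II against potassium. For potassium against control it was 0.22 ± 0.15, with paired values of -0.14, 0.09 and 0.72, and it was -0.02 without preparation 3, 0.03 without control tube 3, 0.04 without potassium tube 3 and 0.41 without potassium tube 1.

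Prss22 (1384329_at), the tryptase epsilon gene, was dim and the most variable member. It read 86.0, 69.7 and 155 in control, 183, 242 and 217 with Ang II, and 85.0, 40.2 and 14.6 with potassium. The Ang II tubes lay above all others, and control and potassium tubes overlapped. The log2 difference was 1.00 ± 0.40 for Ang II against control and -1.04 ± 0.40 for potassium against control. The paired potassium values of -0.01, -0.61 and -2.48 differed more than those of any other member. Between Ang II and potassium the difference was 2.03 ± 0.40 (4.09-fold). Single tubes weighed on these values: without control tube 3 the Ang II difference was 1.50 and the potassium difference -0.54, and the latter was -1.56 without potassium tube 1, -0.45 without potassium tube 3 and -0.31 without preparation 3. Prss22 also passed the signal filter through its Ang II tubes, with a mean log2(signal + 16) of 6.83 over all 9 tubes and of 6.32 over the control and potassium tubes, against the limit of 6.61.

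**Figure D3:**
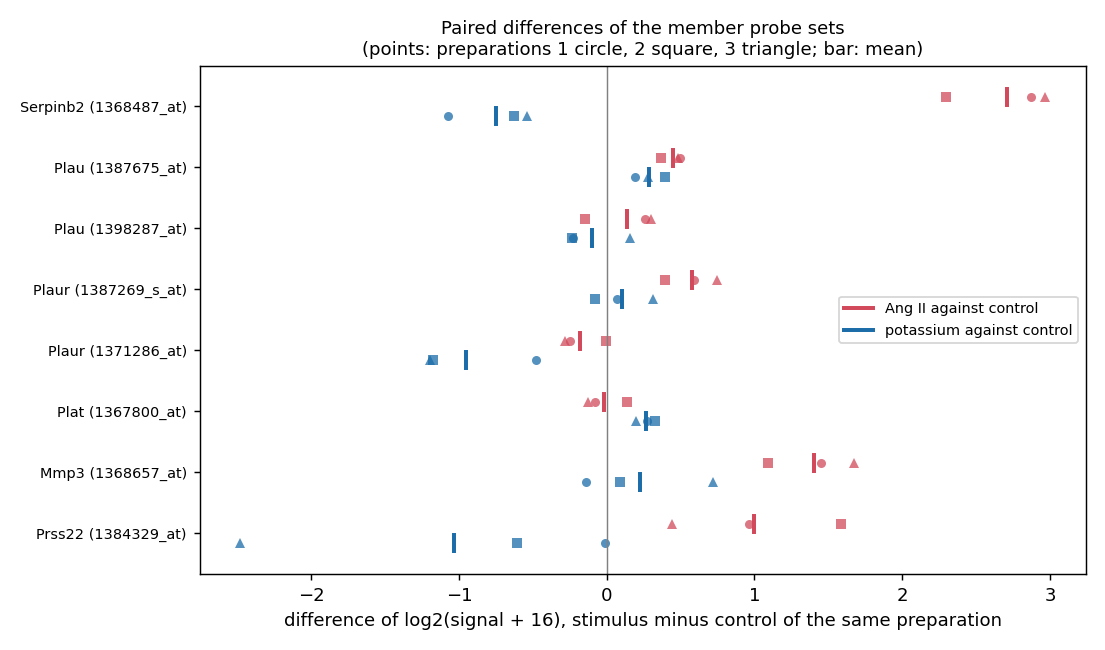
Paired differences of log2(signal + 16), stimulus minus control of the same preparation (horizontal axis), for the 8 member probe sets, with 1 point per preparation and a bar at the mean. Ang II values (red) of Serpinb2 lie from 2.30 to 2.97 and its potassium values (blue) from -1.08 to -0.54, whereas for Plat the potassium values lie from 0.20 to 0.33 around an Ang II mean of -0.02.

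Of the 7 member probe sets that passed the signal filter, limma's fit called 4 higher after Ang II (Serpinb2, Plaur, Mmp3 and the brighter probe set of Plau), where 1.66% of all tested probe sets were called higher, and called none lower, where 0.532% of all were. For potassium it called 1 higher (Plat) and 1 lower (Serpinb2), where 2.78% and 2.58% of all tested probe sets were called. Between Ang II and potassium it called 4 higher with Ang II (Serpinb2, Plaur, Mmp3 and Prss22) and 1 lower (Plat), against 3.09% and 1.7% of all. Prss22 entered the test through the group in which it was high. Since these comparisons were known when the members were chosen, nothing is read from the counts. The median log2 difference of the 7 probe sets was 0.58 for Ang II against control, 0.10 for potassium against control and 0.48 for Ang II against potassium, and over all tested probe sets it was -0.03, -0.02 and -0.01. Scaling each array to a common median moved the median of all tested probe sets to 0.09 for Ang II and 0.10 for potassium, with 431 probe sets called higher and 33 lower for Ang II in place of 310 and 99, and 722 and 177 for potassium in place of 518 and 480. Member differences from control moved upward with it, to 0.57 for Plau after Ang II and to 0.39 for Plat and 0.41 for Plau after potassium.

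Groups did not overlap in 5 of the 7 for Ang II above control, in 1 for potassium above control and in 1 for potassium below it, where 7.3%, 7.84% and 9.78% of all tested probe sets did the same. No member lay wholly below control after Ang II (7.75% of all). Between the stimuli 4 lay wholly higher with Ang II and none wholly lower, where 9.72% and 9.06% of all did. The sign was the same in all 3 preparations for 5 higher and 0 lower after Ang II (15.6% and 19.7% of all), for 2 and 2 after potassium (17.4% and 20.9%) and for 5 and 1 between the stimuli (18.9% and 19.9%). Signals also differed between preparations. The preparation with the highest signal was preparation 2 for 6 of the 7 member probe sets in the control tubes, for 6 in the Ang II tubes and for 6 in the potassium tubes. Over all tested probe sets that share was 40.9%, 37.8% and 34.7%. The exceptions were Prss22 in the control and potassium tubes and Serpinb2 in the Ang II tubes. Fewer cells of a type and less RNA per cell cannot be told apart in such bulk RNA.

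Markers of other cells were looked at because macrophages and stromal cells can also express several of these genes. All 12 macrophage and other myeloid markers had a probe set, 10 of them above the signal limit, with Cd163 and Itgam below it and none at 0. Their summed signal ran from 10868 to 14807 in control, from 11161 to 14463 with Ang II and from 9400 to 14228 with potassium, and within each group it was highest in preparation 2 and lowest in preparation 1. Lyz2, the brightest of these markers, read 4576 to 8041 over the 9 arrays and weighed most in that sum. Single markers differed from it: Mrc1 was highest and Cd14 lowest in preparation 3 in each group. The smooth muscle and pericyte sum was also highest in preparation 2 in each group. It ran from 8728 to 9546 there and from 6308 to 7137 elsewhere, with Tagln, its brightest gene, at 3394 to 5914. The endothelium sum (22322, 25120 and 28338 in control) and the medulla sum (2256, 2307 and 3040) were highest in preparation 3 in each group. The capsule fibroblast sum (16327, 17794 and 19790 in control) was highest in preparation 3, but in preparation 2 with Ang II. Of the smooth muscle and pericyte markers, Acta2, an actin of contractile cells, was chosen for mention after its values were seen. It passed the test after Ang II (0.40 ± 0.10, adjusted p = 0.049). That call ended in 18 of 22 alternatives and without any single array (adjusted p from 0.053 to 0.26, and from 0.020 to 0.40 over all alternatives). No tested marker of macrophages, endothelium, capsule fibroblasts or medulla was called by limma in any comparison. At an unadjusted p of 0.05, 1 macrophage marker was higher for Ang II against control, 1 was higher and 2 lower for potassium against control and 1 higher for Ang II against potassium, beside 1 fibroblast marker higher for potassium and 1 medullary marker lower for Ang II against potassium. The part of these cells in the members' values was not tested. Of 9 zona glomerulosa markers, 8 had a probe set, all above the signal limit, while Cyp11b2 was not analysed here. In control Dab2 read 11494 to 12026 and Agtr1b 2559 to 3079.8, but Kcnk9 was dim, at 90.7, 195 and 28.3. Akr1b7, a marker of the zona fasciculata, read 27524 to 29477 in control. The control sum of the 3 measured fasciculata markers was 32753 to 39265, most of it Akr1b7. For the 8 of the glomerulosa it was 68230 to 74001, most of it Hsd3b1 (23835 to 25886) and Star (16584 to 20542). A few bright genes thus set both sums, which do not measure the share of cells of either zone. Of the 8 glomerulosa markers, 2 passed the test in at least 1 comparison. Wnt4, a signalling ligand of the glomerulosa, was lower after Ang II (-0.32 ± 0.07, adjusted p = 0.022, lost in 11 of 22 alternatives) and lower with Ang II than with potassium (-0.41 ± 0.07, adjusted p = 0.0022, lost in 3). Star, which carries cholesterol into mitochondria for steroid synthesis, was higher after Ang II (0.29 ± 0.06, adjusted p = 0.024, lost in 13) and after potassium (0.34 ± 0.06, adjusted p = 0.0042, lost in 2). Of the 3 measured markers of the neighbouring zona fasciculata, Mrap, a partner of the ACTH receptor, was higher after Ang II (0.34 ± 0.08, adjusted p = 0.043, lost in 12) and after potassium (0.44 ± 0.08, adjusted p = 0.0050, lost in 3), and Cyp11b1 read 5174, 1839 and 2895 in control. All single-array losses of these calls were for Ang II against control: Wnt4 without control array 1 or 3 or any Ang II array (adjusted p up to 0.16), Star without control array 2 or any Ang II array (up to 0.16) and Mrap without control array 1 or 2, any Ang II array or potassium array 1 (up to 0.26). Over all alternatives the adjusted p reached 0.45 for Wnt4, 0.31 for Star and 0.49 for Mrap after Ang II. Leaving out preparation 1 ended the potassium calls of Star and Mrap and the call of Wnt4 between the stimuli (adjusted p up to 0.16, 0.21 and 0.12 over all alternatives).

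The other genes of proteolysis were taken from 5 lists with 148 genes, of which 82 had a tested probe set. After Ang II limma called 3 of the 82 higher and none lower (7 higher and 3 lower at an unadjusted p of 0.05), where 2.2% of all tested probe sets were called in either direction. After potassium 3 were called higher and 5 lower, where 5.36% of all were called. Ang II against potassium gave 7 higher and 2 lower, where 4.79% of all were called. Each of the 82 genes is counted at its brightest tested probe set, whereas these shares are over every tested probe set, dim ones included. Counts and shares are therefore not like for like, and no enrichment is read from them. The median log2 difference of the 82 genes was 0.02, 0.05 and 0.03 in these comparisons, near the -0.03, -0.02 and -0.01 of all tested probe sets. With arrays scaled to a common median the counts were 1 and 0 for Ang II, 3 and 1 for potassium, and 2 and 0 between the stimuli.

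Of the other plasminogen system genes, 21 of 35 were tested, and 2 rose after Ang II, 2 fell after potassium and 3 were higher with Ang II than with potassium. F3, the gene of tissue factor, which starts blood clotting, rose 2.16-fold after Ang II, from 401 ± 27.0 to 898 ± 174 (SD, n = 3), a log2 difference of 1.11 ± 0.15 (SE, adjusted p = 5.9e-04). With potassium it stood at 376 ± 44.1 (-0.09 ± 0.15, adjusted p = 0.80), and Ang II and potassium differed by 1.21 ± 0.15 (adjusted p = 1.5e-04). The call of F3 against control held without any single array (adjusted p from 2.2e-04 to 0.011) and ended only without the variance trend (adjusted p = 0.090, in a range over all alternatives from 1.4e-05).

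Annexin A2 (Anxa2) and its partner S100a10 form a surface complex that binds plasminogen and tissue plasminogen activator. Anxa2 fell 1.43-fold after potassium, from 7886 ± 43.7 to 5532 ± 637 (-0.52 ± 0.07, adjusted p = 3.4e-04), and was at 9676 ± 108 with Ang II (0.29 ± 0.07 from control, adjusted p = 0.044). The rise after Ang II ended in 16 of 22 alternatives, among them without each control and each Ang II array and without potassium array 2 (adjusted p from 0.027 to 0.24 over single arrays left out and up to 0.85 over all alternatives), and the 1 other tested probe set of Anxa2 had the opposite sign there. The fall after potassium ended with arrays scaled to a common median and without the variance trend (adjusted p from 1.7e-04 to 0.075 over all alternatives). Between Ang II and potassium Anxa2 differed by 0.81 ± 0.07 (adjusted p = 6.0e-06), and this held in all 22 alternatives (adjusted p up to 0.031). S100a10 was higher with Ang II than with potassium by 0.25 ± 0.06 (adjusted p = 0.028), and this call was lost in 12 of 22 alternatives, including without Ang II arrays 1 and 2 and without each potassium array (adjusted p up to 0.22, and up to 0.39 over all alternatives). Its differences from control were 0.05 ± 0.06 for Ang II and -0.19 ± 0.06 for potassium (adjusted p = 0.76 and 0.079).

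Vldlr, a receptor that clears complexes of proteases with their inhibitors, fell after potassium by 0.56 on the log2 scale (SE 0.13, adjusted p = 0.023), and of its 3 other tested probe sets 2 were called too. Between Ang II and potassium it did not pass (0.43, adjusted p = 0.094), and 1 of those 3 did. The potassium call ended in 9 of 22 alternatives, with control arrays 1 and 3 and potassium arrays 1 and 3 among the single arrays (adjusted p from 0.0054 to 0.13, and up to 0.22 over all alternatives). Serpine2, which encodes protease nexin 1, another inhibitor of urokinase, had log2 differences of 0.21 ± 0.10 after Ang II and 0.22 ± 0.10 after potassium (adjusted p = 0.36 and 0.27). The plasminogen receptor gene Plgrkt (0.03 ± 0.18 and 0.20 ± 0.18) and the clearance receptor gene Lrp1 (0.17 ± 0.13 and 0.08 ± 0.13) did not pass the test in any comparison. Plasminogen itself lay below the signal limit, with control signals of 96.8, 37.6 and 64.9 at Plg, and so did Serpinf2, the gene of the plasmin inhibitor (13.3, 37.0 and 27.7).

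**Figure D4:**
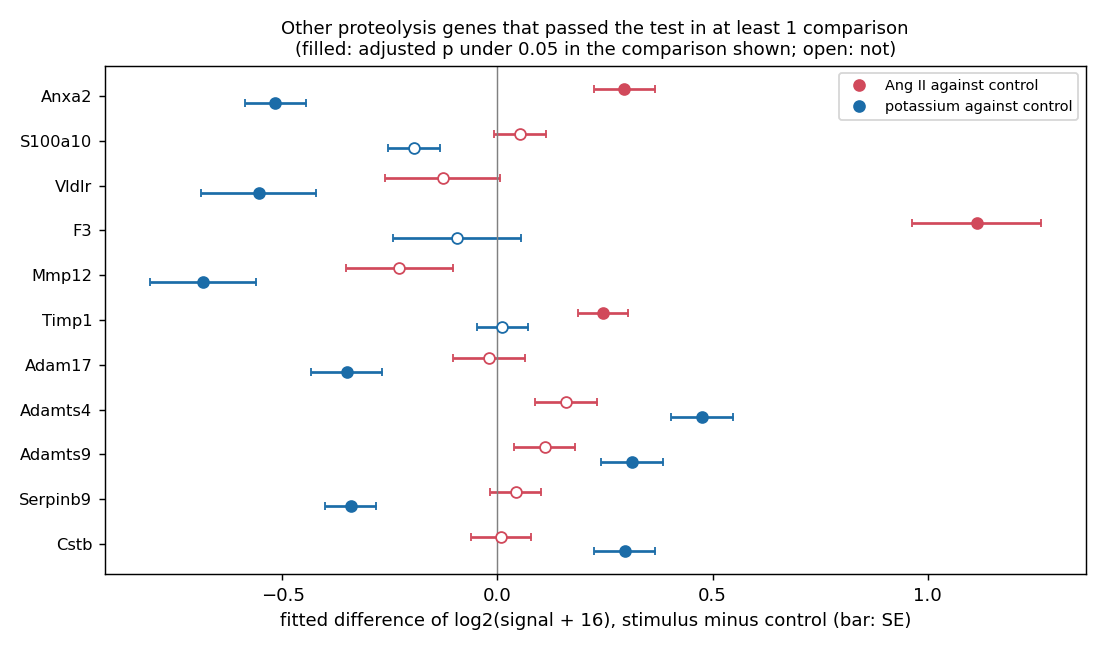
Fitted difference of log2(signal + 16) from control (horizontal axis, bars SE) after Ang II (red) and potassium (blue) for the genes of the 5 lists that passed the test in at least 1 of the 3 comparisons. Filled points passed an adjusted p of 0.05 in the comparison shown; F3 at 1.11 stands farthest from 0 after Ang II and Mmp12 at -0.68 after potassium.

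Among the other matrix metalloproteinases and their inhibitors, 14 of 23 were tested. Timp1, an inhibitor that binds active metalloproteinases, rose 1.19-fold after Ang II, from 12264 ± 538 to 14535 ± 268 (0.25 ± 0.06, adjusted p = 0.041), and was 0.23 ± 0.06 above potassium (adjusted p = 0.031). The call against control ended in 18 of 22 alternatives and without any single array (adjusted p from 0.056 to 0.18, and from 0.031 to 0.33 over all alternatives), and that against potassium without any Ang II or potassium array (up to 0.16, and up to 0.44 over all alternatives). Mmp12, the macrophage elastase gene, fell 1.61-fold after potassium, from 639.9 ± 177 to 387 ± 68.8 (-0.68 ± 0.12, adjusted p = 0.0037), a call that ended only without the replicate block (adjusted p = 0.14, the highest of all alternatives). After Ang II it stood at 548 ± 175 (-0.23 ± 0.12, adjusted p = 0.43), and the difference between the stimuli (0.46 ± 0.12, adjusted p = 0.049) ended in 19 of 22 alternatives and without any single array (adjusted p from 0.051 to 0.26, and from 0.036 to 0.45 over all alternatives). Mmp9, a gelatinase gene, was below the signal limit, at 42.1, 91.4 and 110 in control and 54.3, 59.4 and 82.8 with Ang II. Mmp2, Mmp14 and Timp2 did not pass the test in any comparison, with log2 differences from control between 0.01 and 0.17. Timp3 did not pass either at its brightest probe set (0.10 ± 0.07 after Ang II and -0.01 ± 0.07 after potassium). With the mean of its probe sets it was called higher after both stimuli (adjusted p = 0.014 for Ang II, and 0.31 on the log2 scale with adjusted p = 0.011 for potassium).

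Mmp10, the gene of stromelysin 2, lies near Mmp3 in the metalloproteinase cluster, with Mmp1, not analysed here, between them, and was below the signal limit. It read 27.1, 21.2 and 14.8 in control, 152, 195 and 114 with Ang II, and 3.46, 78.0 and 39.3 with potassium. Its Ang II tubes lay above all others, as those of Mmp3 did, and control and potassium tubes overlapped. With no signal filter its log2 difference after Ang II was 2.18 ± 0.48 (adjusted p = 0.044 over 31042 probe sets), and against potassium 1.84 ± 0.48 (adjusted p = 0.064). It was the only one of the 44 list genes below the limit that was called in that fit. For Ang II against control the same fit called 257 of the 31042 probe sets higher and 68 lower. Whether the call of Mmp10 holds under the other alternatives was not tested. Mmp3 and Mmp10 encode closely related proteins, and whether their probe sets cross-hybridise was not tested. Control and Ang II tubes overlapped for Mmp13 and Mmp8 of the same cluster, with Mmp13 at 84.4 ± 29.4 in control and 82.0 ± 2.87 with Ang II (SD, n = 3), and Mmp8 at 56.5 ± 21.9 and 43.2 ± 33.7. Dcun1d5, the gene beside Mmp13 on the side away from Mmp3, stood at 960 ± 68.8 in control, 1223 ± 54.3 with Ang II and 1069 ± 33.6 with potassium, and its log2 difference after Ang II was 0.35 (adjusted p = 0.061).

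**Figure D5:**
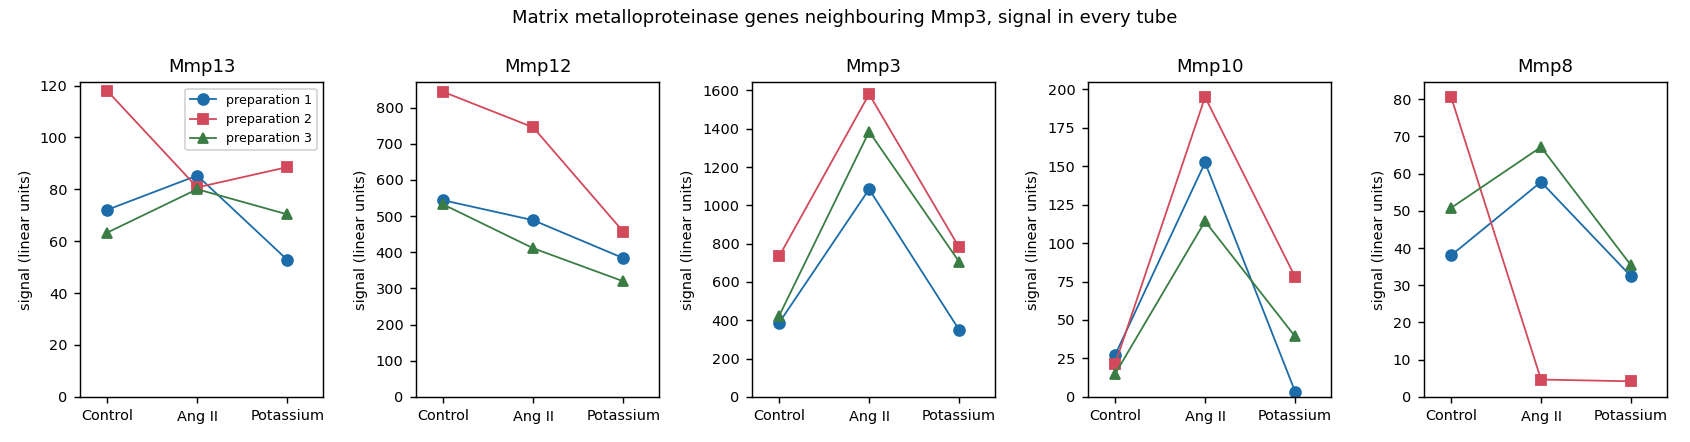
Signal (linear units, each axis from 0) of Mmp13, Mmp12, Mmp3, Mmp10 and Mmp8 in the control, Ang II and potassium tubes, with 1 line per preparation. Mmp3 (1084 to 1580.5) and Mmp10 (114 to 195) are highest with Ang II in every preparation, and Mmp12 is lowest with potassium in every preparation.

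The measured neighbours of Serpinb2 in the serpin B cluster were all below the signal limit. Serpinb7, the gene next to it on one side, read 39.5 ± 34.1 in control, 48.8 ± 23.0 with Ang II and 58.5 ± 38.5 with potassium (SD, n = 3). Serpinb10, next to it on the other side, read 53.1 ± 25.4, 35.2 ± 26.5 and 36.9 ± 23.3, so the groups of both overlapped. A serpin B gene with a high signal, Serpinb9, the granzyme B inhibitor gene, was 1.27-fold lower after potassium, falling from 7574 ± 543 to 5969 ± 338 (-0.34 ± 0.06, adjusted p = 0.0027), and stood at 7794 ± 380.3 with Ang II. Its calls against control and against Ang II (0.38 ± 0.06, adjusted p = 0.0010) ended with arrays scaled to a common median, without the variance trend and without preparation 1 (adjusted p up to 0.30 and 0.11). Serpinb9 was the only one of 17 tested trypsin-like proteases and serpins that was called at the brightest probe set, in both of those comparisons. Pcsk5, a proprotein convertase gene, was not called there (0.06 after potassium, adjusted p = 0.77), but its 1 other tested probe set was called after potassium, with the same sign. None was called after Ang II, where 1 was higher and 1 lower at an unadjusted p of 0.05 in limma.

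Of 14 tested ADAM and ADAMTS proteases, none was called after Ang II by limma, with 2 higher at an unadjusted p of 0.05. After potassium 2 rose and 1 fell. Adamts4, an aggrecan-cleaving protease, rose 1.39-fold from 4640.1 ± 814 to 6416 ± 626 (0.48 ± 0.07, adjusted p = 8.4e-04), and its call ended only without the replicate block and without the variance trend (adjusted p up to 0.089). It was also higher with potassium than with Ang II (Ang II minus potassium -0.32 ± 0.07, adjusted p = 0.018), and this call was lost in 9 of 22 alternatives, with Ang II arrays 1 and 2 and potassium arrays 1 and 3 among the single arrays (adjusted p up to 0.14, and up to 0.28 over all alternatives). Adamts9 rose by 0.31 ± 0.07 (adjusted p = 0.019), and this call was lost in 10 of 22 alternatives, among them without control array 2 or 3 or potassium array 2 or 3 (adjusted p up to 0.11, and up to 0.96 over all alternatives), and its 1 other tested probe set had the opposite sign. Adam17, which sheds growth factors and cytokines from the cell surface, fell by 0.35 on the log2 scale after potassium (SE 0.08, adjusted p = 0.022) and was 0.33 ± 0.08 lower with potassium than with Ang II (adjusted p = 0.032). Each of these calls ended in 10 of 22 alternatives, the first without control array 2 or 3 or potassium array 1 or 3 (adjusted p up to 0.11, and up to 0.29 over all alternatives) and the second without Ang II array 1 or 3 or any potassium array (up to 0.25, and up to 0.30).

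Of 16 tested cathepsins and cystatins, Cstb, an intracellular inhibitor of cathepsins, was the only one called. It rose 1.23-fold after potassium, from 4794 ± 194 to 5893 ± 388 (0.30 ± 0.07, adjusted p = 0.022), and was 0.29 ± 0.07 higher with potassium than with Ang II (adjusted p = 0.028). The first call ended in 8 of 22 alternatives, among them without control array 1 or 3 or potassium array 1 or 3 (adjusted p up to 0.13, and up to 0.25 over all alternatives), and the second in 9, among them without Ang II array 1 or 3 or potassium array 1 or 3 (up to 0.17, and up to 0.27). After Ang II limma called none, and 2 were lower at an unadjusted p of 0.05.

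The genes with the nearest pattern to each member were found by the root mean square distance between the 6 paired log2 differences (3 for each stimulus), over 10398 other genes. All these differences share the control arrays, and the distances are a description. Nearest to Serpinb2 were Fancc (distance 0.62), a DNA repair gene, the vesicular glutamate transporter gene Slc17a6 (0.66) and the sulfiredoxin gene Srxn1 (1.00). Of these, Slc17a6 shared most clearly the lower level with potassium, with mean differences of 1.99 after Ang II and -1.06 after potassium, whereas Srxn1 was at 0.24 after potassium. For Mmp3 the nearest were the kinase gene Dclk1 (0.28), Klhl41 (0.34) and the synaptic scaffold gene Homer1 (0.38), and for Plaur the growth factor gene Bmp2 (0.10), the receptor gene Gpr83 (0.12) and Pxdc1 (0.12). Plau was nearest to the translation initiation factor gene Eif4e (0.10), Zc3h11a (0.10) and Vps37a (0.10), whose differences were as modest as its own. Nearest to Prss22 were Cutal, Cs and Klf5, at distances of 0.76, 0.76 and 0.77. Their mean differences were 0.73, 0.32 and 0.42 after Ang II and -0.13, -0.29 and -0.51 after potassium. All were smaller in size than the 1.00 and -1.04 of Prss22, so none matched it closely. Plat did not reach the difference of 0.3 required.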

How the data were processed

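Each array was deposited as 1 intensity value, on a linear scale, for every probe set. GCOS, the array maker's software, was used per the submitters' processing notes, and how it corrected background and summarised probes is not stated there. Scaling to a shared target was evident in these deposited intensity values: trimmed by 2% at each end, every array's mean was 500.2. Medians over probe sets that are not controls ran from 128.0 to 173. The highest was that of control array 2, and the next highest was 144 in Ang II array 2. Gene names come from the platform's annotation table, updated through RefSeq (GRCr8). Of the probe sets, 20826 had 1 symbol, 436 had several, 9780 had none, and 57 controls were dropped.

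A single model of log2(signal + 16) over all 9 arrays, with group and cell preparation as fixed terms (4 residual degrees of freedom), was fitted in limma 3.58.1 under R 4.3.3, with eBayes and a variance trend. Calls use a Benjamini-Hochberg adjusted p of 0.05 over the 18625 probe sets above the 40th percentile of mean log2 signal. The preparations pair the tubes by the study's design. Deviations from group means correlated at 0.09 to 0.27 between tubes of 1 preparation and at -0.21 to 0.05 between preparations. The code was tested on simulated data.

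Each list gene was represented by its brightest tested probe set. List genes named are up to 6 called per list and comparison with the smallest p, and 16 genes named whatever their result, of which 1 is not reported here. Likeness was computed for members beyond 0.3 in either stimulus, with 3 genes each. The members and lists were chosen with earlier results of these data known. Mmp8, Dcun1d5, Serpinb7, Serpinb10 and Pcsk5 are named by position or another probe set, and the cell markers from 7 lists, after their values were seen. Alternatives were the pseudocount, filter, scaling, block, trend, probe set choice, samples fitted and arrays left out. The number of arrays limits precision.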

Additional observations from a re-analysis of the deposited data

How the results depend on the processing

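Member differences were recomputed under 22 alternatives, giving 522 values for 24 probe set comparisons. Of these, 513 moved by less than 1 SD of the paired differences and 9 moved more, and 10 changed sign, all of values not called by the fit. With arrays scaled to a common median the brighter Plau probe set moved to 0.57 after Ang II and 0.41 after potassium, and Plat to 0.39 after potassium. The mean of both Plau probe sets gave 0.29 after Ang II and 0.093 after potassium. The dim Plaur probe set was at -1.44 after potassium with a pseudocount of 1 and at -0.47 with 64. Leaving out single arrays or whole preparations moved Serpinb2 after Ang II between 2.55 and 2.95, Mmp3 between 1.22 and 1.56, Plau between 0.40 and 0.52, Plaur between 0.48 and 0.67 and Prss22 between 0.70 and 1.50. After potassium Prss22 ran from -1.56 to -0.31 and Mmp3 from -0.02 to 0.41. Plaur for Ang II against potassium ran from 0.43 to 0.54.

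The counts of list genes called were less stable. For Ang II against control the 3 higher genes became 1 with median scaling, 1 with quantile normalization, 1 without the replicate block, 0 without the variance trend, and 1 to 2 without single arrays or preparations. For potassium against control the 3 higher and 5 lower became 0 and 2 without the replicate block and 0 and 1 without the trend, 1 was lower with median scaling, and leaving out arrays or preparations gave 1 to 3 higher and 2 to 5 lower. For Ang II against potassium the 7 higher and 2 lower became 4 higher with no signal filter, 2 and 0 with median scaling, 3 and 0 without the replicate block, 2 and 0 without the trend, and 2 to 7 and 0 to 2 with arrays or preparations left out. Timp3 after potassium turned from -0.01 to 0.31 with the mean of its probe sets. The cause of these shifts was not tested. Detection calls were not used here, so the level below which a signal is noise is unknown for Prss22, Mmp10 and the dim Plaur probe set.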
